A study of Mus musculus with 24 samples.

Results

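The Rab GTPases of fasted mouse liver were examined in RNA-seq counts. All protein-coding rows of the count table whose symbol is Rab followed by a number, with at most 1 letter and 1 further digit, were taken as the family. The rule found 59 of the 54532 genes in the table and used no measured value. The livers came from 24 male C57/BL6J mice of 8 to 10 weeks, fasted for 24 h, with 4 mice in each of 6 genotype groups. Rab30KO mice carried the deletion in every tissue, and their wild-type littermates (Rab30 Ctrl) served as controls. Rab30L-/- and Cpt2L-/- livers had lost a floxed Rab30 or a floxed Cpt2 allele to Cre driven by the albumin promoter, which is active in hepatocytes. DKO livers had lost both floxed genes in this way. The double floxed mice without Cre (ff;ff) were littermates of the DKO mice, and the labels name no littermates for Rab30L-/- or Cpt2L-/-. Cpt2 encodes carnitine palmitoyltransferase 2, which long-chain fatty acids need for oxidation in mitochondria. The comparisons below ask how the Rab genes other than Rab30 differed once Cpt2 was lost from the fasted liver.

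Rab proteins are small GTPases that mark the membranes of the cell. In the GTP-bound form each Rab sits on its own compartment by prenyl groups at its end and recruits effectors such as tethers, motors and sorting proteins. Guanine nucleotide exchange factors load a Rab with GTP, and GTPase-activating proteins switch it off. In hepatocytes these proteins serve the secretion of plasma proteins and lipoproteins, the sorting of receptors between blood and bile surfaces, lysosomes and lipid droplets.

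Library totals ranged from 11801027 to 24497738 counts. Every pair of libraries in a group differed by more than counting noise. The counts cover whole genes, so they do not check the deleted exons. Cpt2 was at 53.5 ± 12.3 FPKM (SD, n = 4) in Cpt2L-/- and 56.2 ± 2.55 in ff;ff, and at 44.7 ± 4.51 in DKO and 92.4 ± 17.2 in Rab30L-/-. FPKM is the authors' count per kilobase of gene, divided by a scaled total of the library. It is the level used below, since it can be compared between genes. Among markers, the summed level of 6 hepatocyte genes was 20223 to 25009 FPKM in Cpt2L-/- against 40598 to 53081 in ff;ff. It was 26214 to 30824 in DKO against 34587 to 41329 in Rab30L-/-. For the averaged Cpt2 effect defined below, 4 of these 6 fell. Of 8 Kupffer and macrophage markers, 7 fell and 1, Cd68, rose. Their summed level was 87.2 to 120 FPKM in Cpt2L-/- against 72.7 to 131 in ff;ff, and 80.8 to 116 in DKO against 95.1 to 282 in Rab30L-/-. Of the other lists, blood had 3 of 3 lower, bile duct 1 of 5 lower, stellate cells 1 of 7 higher, and neither the 6 endothelial nor the 3 tested leukocyte markers were called. No marker was at 0 in all 24 libraries. The part of these shifts in the Rab results was not tested, and in bulk liver fewer cells of a type and less RNA per cell cannot be told apart.

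A few members made up much of the family's RNA. By mean level over the 24 libraries, 18 members stood at 10 FPKM or more, 19 between 1 and 10, and 22 under 1. The 5 highest were Rab7 of late endosomes (80.3 FPKM), Rab2a and Rab1b of the path between endoplasmic reticulum and Golgi (61.0 and 56.3 FPKM), Rab1a (52.8 FPKM) and Rab18, which works at lipid droplets and the endoplasmic reticulum (47.0 FPKM). Together they held 48.1% ± 1.34 (SD over 24 libraries) of the summed Rab level, with a range of 45.3% to 50.03%. Next came Rab5c of early endosomes (34.5 FPKM), Rab9 (30.5 FPKM) and Rab10, an exocytic Rab (29.1 FPKM). At the other end, Rab9b had no count in any library, and Rab3c, Rab26 and Rab42 never had more than 3. Rab30 itself ranked in the middle, at 6.78 FPKM over all groups and 0.569 to 24.4 FPKM over single libraries.

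Rab18 and Rab2a, 2 of the 5 highest members, overlapped between all groups compared. Rab18 was at 59.9, 39.03, 46.9 and 41.3 FPKM in Rab30 Ctrl, 44.6, 46.7, 46.6 and 60.3 in Rab30KO, 60.8, 42.3, 39.3 and 42.6 in ff;ff, 40.8, 44.1, 44.5 and 46.7 in Rab30L-/-, 41.6, 46.6, 54.8 and 42.9 in Cpt2L-/- and 46.6, 47.5, 43.8 and 56.8 in DKO. Rab2a was at 72.2, 48.4, 58.6 and 47.9 FPKM in Rab30 Ctrl, 49.7, 60.8, 55.5 and 66.8 in Rab30KO, 75.6, 54.7, 53.2 and 55.5 in ff;ff, 58.7, 50.3, 55.2 and 55.1 in Rab30L-/-, 59.97, 70.6, 75.6 and 68.2 in Cpt2L-/- and 58.6, 65.6, 61.6 and 85.7 in DKO. The summed Rab level was 618 to 710 FPKM in Cpt2L-/- and 637 to 746 in DKO, against 587 to 668 in ff;ff and 552 to 593 in Rab30L-/-. The DKO and Rab30L-/- livers did not overlap in this sum.

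Loss of Cpt2 was followed by changes in a minority of the family. A gene was called when its adjusted p from edgeR's quasi-likelihood test was under 0.05 and its change at least 1.2-fold. In Cpt2L-/- against ff;ff, 9 of the 41 members tested were called, 7 higher and 2 lower. Over all genes tested in this comparison 23.8% were called, 11.9% higher and 11.9% lower, so the members' count was near the background. In DKO against Rab30L-/-, 17 of 40 members were called, 8 higher and 9 lower, and 11 without replicate 2 or without replicate 4 of Rab30L-/-, beside 30.7% of all genes (14.9% higher and 15.8% lower). The averaged Cpt2 effect is the mean of these 2 differences, fitted over the 16 libraries of the 4 groups. It called 13 of 44 members, 7 higher and 6 lower, beside 37.4% of all genes (18.2% higher and 19.3% lower). In DKO against ff;ff, 5 of 40 members were called, and 3 without replicate 4 of ff;ff, beside 16.1% of all genes. The median log2 fold change of the members was 0.00 in Cpt2L-/- against ff;ff, 0.10 in DKO against Rab30L-/- and 0.06 for the averaged effect, where that of all genes was -0.01. The medians of the family were close to those of all genes, while single members were called in both directions.

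**Figure D1:**
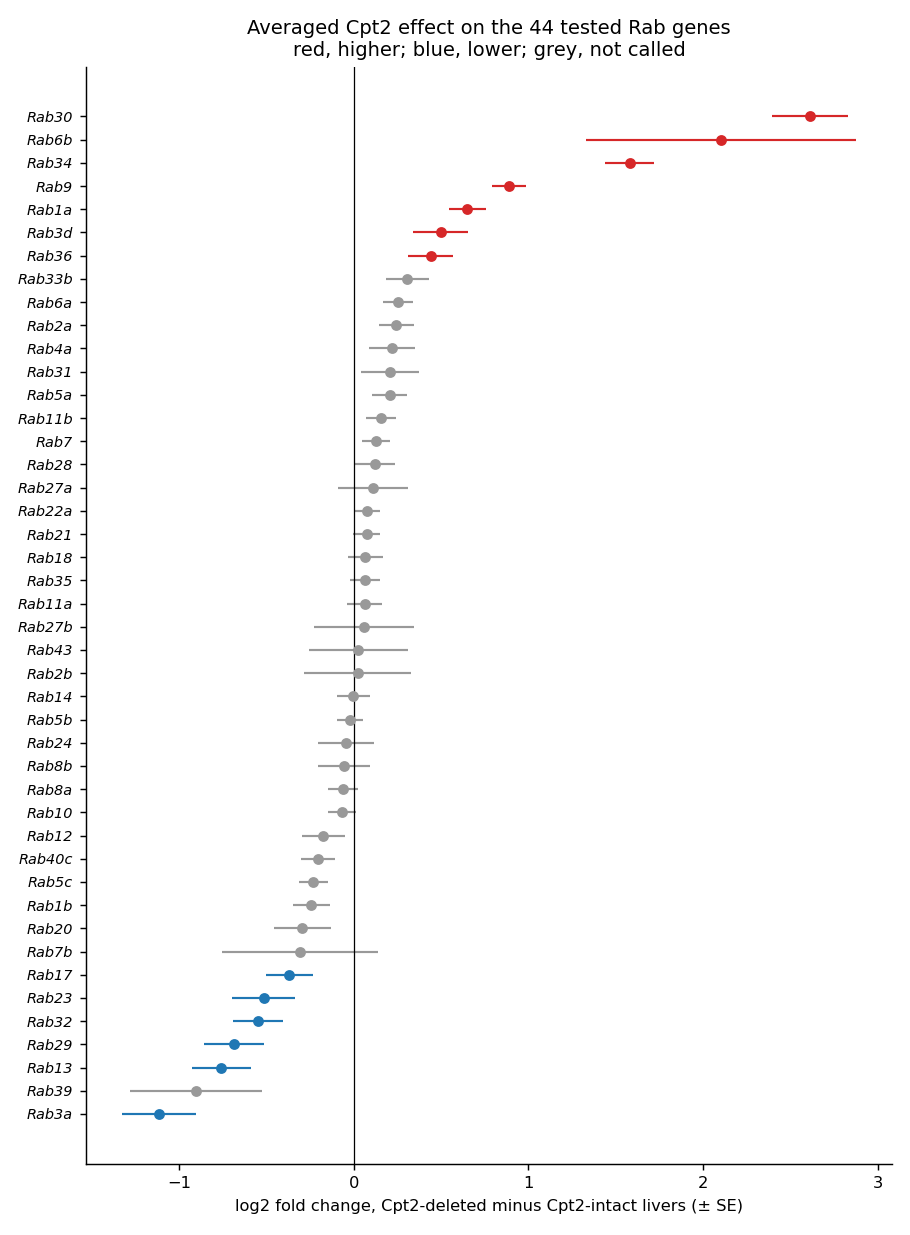
Log2 fold change (x axis, bars are SE) of the 44 tested Rab genes for the averaged Cpt2 effect, that is Cpt2L-/- and DKO against ff;ff and Rab30L-/-. The 7 called higher are red and the 6 called lower blue, from 2.61 for Rab30 to -1.11 for Rab3a.

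The comparisons Cpt2L-/- against ff;ff and DKO against Rab30L-/- share no library. Of the 40 members tested in both, 23 had the same sign (57.5%), beside 66.4% of 12970 genes. Called with the same sign in both were 5 members, Rab1a, Rab9, Rab30, Rab34 and Rab3a, which is 12.5% of the members beside 13.0% of all genes. Rab6b, called in the first comparison, was not tested in the second. The 5 were 62.5% of the 8 members called in the first comparison and tested in both, and 29.4% of the 17 called in the second. Over all genes, 1684 were called with the same sign in both, beside 3155 called in the first comparison and 4081 in the second. These totals include genes tested in only the first or only the second. Rab36 was called in both with opposite signs. Since ff;ff and DKO were littermates, a genetic background they share enters the 2 comparisons with opposite signs and cancels in their mean. A difference in background between Cpt2L-/- and Rab30L-/- does not cancel there and cannot be told apart from the averaged effect.

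**Figure D2:**
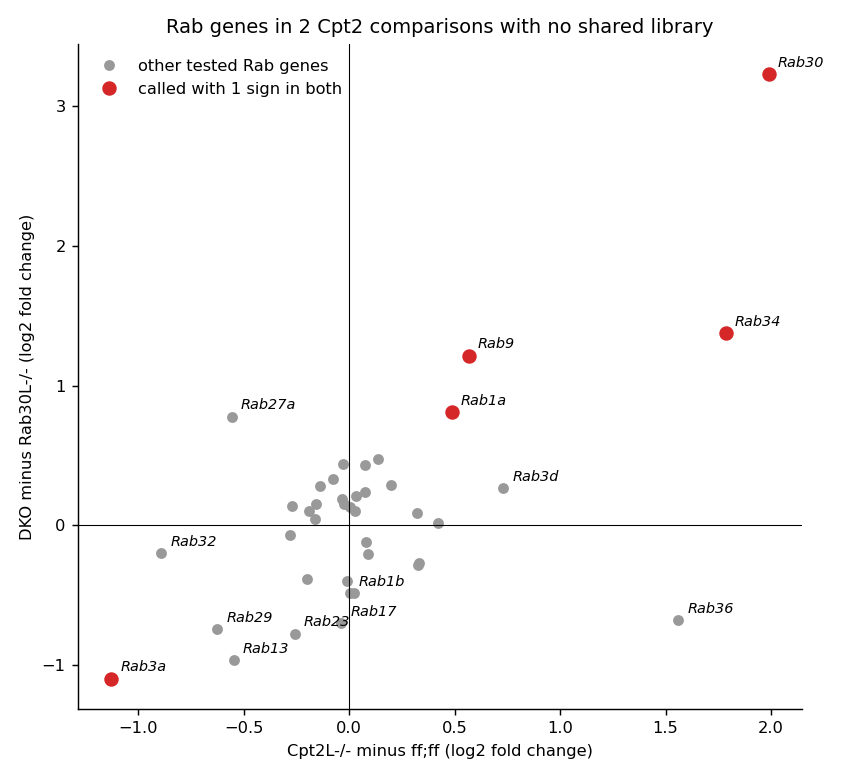
Log2 fold changes of 40 Rab genes in Cpt2L-/- minus ff;ff (x axis) and DKO minus Rab30L-/- (y axis), each from 8 libraries. Rab30, Rab34, Rab9 and Rab1a lie at the upper right and Rab3a at the lower left, while Rab36 has opposite signs.

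Rab1a directs vesicles from the endoplasmic reticulum to the Golgi. Its level was 54.6, 67.4, 67.5 and 63.0 FPKM in the 4 Cpt2L-/- livers and 70.8, 68.2, 70.4 and 84.0 in the DKO livers. It was 59.3, 44.3, 37.1 and 39.2 FPKM in ff;ff and 45.1, 40.5, 45.01 and 34.4 in Rab30L-/-. All DKO livers were above all Rab30L-/- livers, while the lowest Cpt2L-/- liver was under the highest ff;ff liver. The log2 fold change was 0.49 (SE 0.17, adjusted p = 0.0494 by edgeR) in Cpt2L-/- against ff;ff and 0.81 (SE 0.13, adjusted p = 0.00114) in DKO against Rab30L-/-. When each library was omitted in turn, the second call held in 8 of 8 fits. The first held in 1 of 8, without replicate 1 of ff;ff (adjusted p = 0.00542), and rose to an adjusted p of 0.134 without replicate 4 of ff;ff. It was also lost with DESeq2 size factors (adjusted p = 0.0582) and with at least 10 counts in every library. The averaged effect was 0.65 (SE 0.11), a 1.57-fold rise, and stayed called in all 16 such fits.

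Rab9 moves cargo from late endosomes back to the Golgi, including the receptors that deliver lysosomal enzymes. Its level was 39.8, 38.3, 49.8 and 41.4 FPKM in Cpt2L-/- and 40.9, 47.9, 45.3 and 54.8 in DKO. It was 26.6, 26.2, 32.2 and 29.1 FPKM in ff;ff and 24.8, 17.7, 20.6 and 17.1 in Rab30L-/-. Every liver without Cpt2 was above every liver of these 2 groups. The log2 fold change was 0.57 (SE 0.14, adjusted p = 0.00936 by edgeR) in Cpt2L-/- against ff;ff and 1.22 (SE 0.15, adjusted p = 0.00016) in DKO against Rab30L-/-. Both calls held in 8 of 8 fits without a library. Rab9 made up 6.42% and 7.03% of the summed Rab level in Cpt2L-/- and DKO, against 4.69% in ff;ff and 3.48% in Rab30L-/-.

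Rab34 works at the Golgi, in the placing of lysosomes and in the forming of cilia, and it showed the largest fold rise of the tested members after Rab30 and the sparse Rab6b. Its level was 6.99, 8.78, 9.03 and 7.87 FPKM in Cpt2L-/- and 6.38, 6.04, 5.52 and 6.56 in DKO. It was 2.08, 2.89, 1.68 and 2.76 FPKM in ff;ff and 3.23, 1.88, 2.34 and 1.88 in Rab30L-/-. The 8 livers without Cpt2 did not overlap with the other 16 livers of the study, of which the highest was a Rab30 Ctrl liver at 4.87 FPKM. The log2 fold change was 1.79 (SE 0.20, adjusted p = 4.36e-05 by edgeR) in Cpt2L-/- against ff;ff and 1.37 (SE 0.19, adjusted p = 0.000441) in DKO against Rab30L-/-. The averaged effect was a 2.99-fold rise.

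Rab3a drives regulated exocytosis, best known from nerve terminals, and was the only member called lower in both comparisons. Its level was 0.819, 0.692, 1.10 and 0.651 FPKM in Cpt2L-/- and 0.963, 0.979, 1.04 and 0.985 in DKO. It was 2.47, 1.495, 0.931 and 2.27 FPKM in ff;ff and 1.73, 2.39, 1.54 and 2.81 in Rab30L-/-. Replicate 3 of ff;ff lay within the range of the Cpt2L-/- livers, and the DKO and Rab30L-/- livers did not overlap. The log2 fold change was -1.13 (SE 0.34, adjusted p = 0.0266 by edgeR) in the first comparison and -1.10 (SE 0.25, adjusted p = 0.00702) in the second. The first call was lost without replicate 1 or 4 of ff;ff or replicate 1, 2 or 4 of Cpt2L-/-, up to an adjusted p of 0.0836, and the second held in 8 of 8 fits. Rab3a overlaps Mpv17l2 on the opposite strand, and the counting is not stated to use strand. Mpv17l2 changed by 0.12 (SE 0.17) and -0.20 (SE 0.15) on the log2 scale in the same comparisons and was not called.

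**Figure D3:**
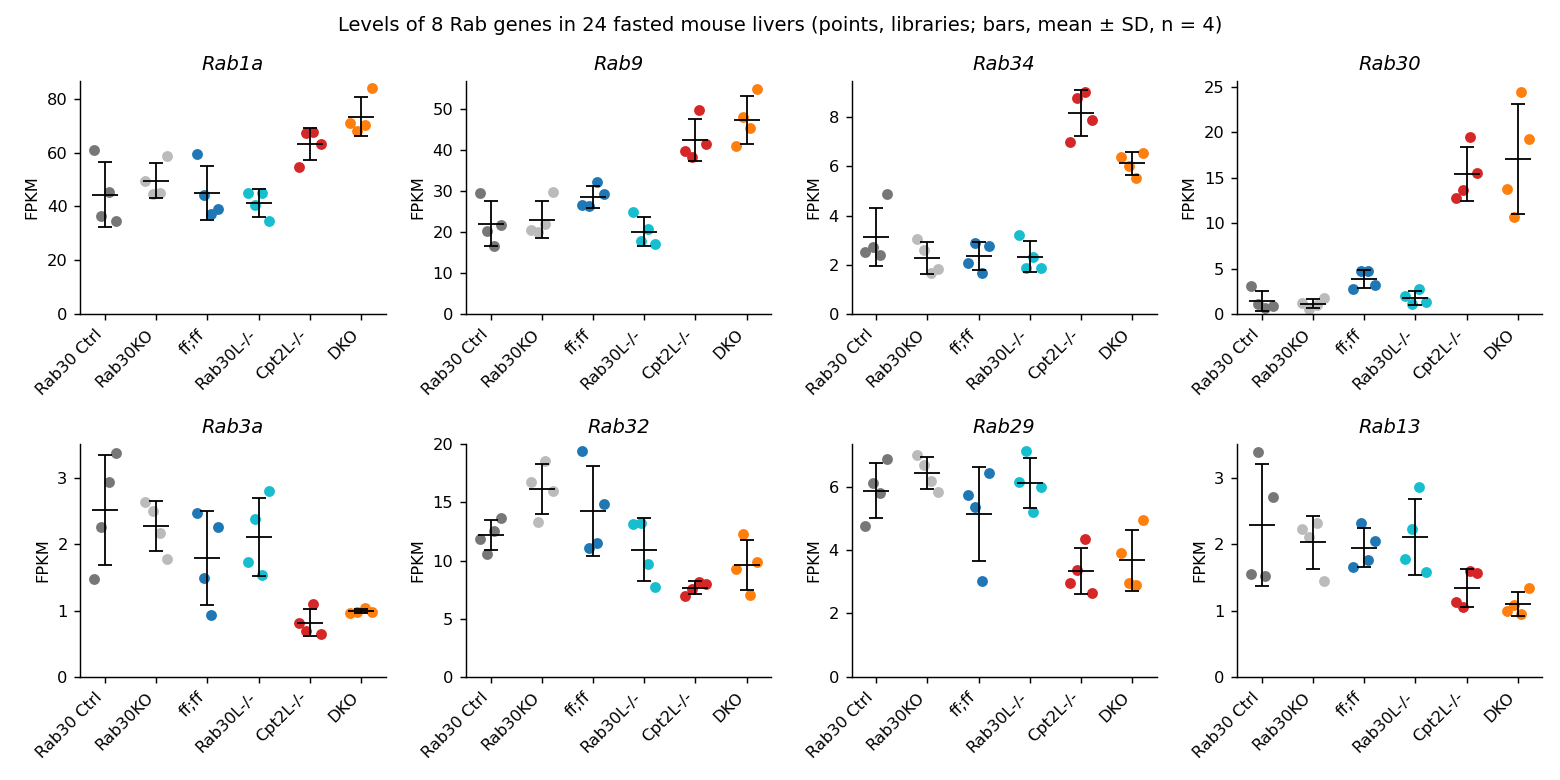
FPKM of 8 Rab genes (y axes from 0) in the 6 groups, where points are livers and bars the mean ± SD of 4. Rab9, Rab34 and Rab30 are higher in all 8 livers without Cpt2 than in the ff;ff and Rab30L-/- livers, and Rab3a, Rab32, Rab29 and Rab13 have lower means there.

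The promoters of these genes are shown because the genes moved together or apart after loss of Cpt2, with that of Rab32 as a second gene that fell. Each run is 250 bases before to 50 after the start of a RefSeq transcript in GRCm38.p6, 5′ to 3′ on the gene's strand. Of the 59 members, 48 matched the promoter table, and Rab30, Rab36, Rab2a, Rab18, Rab4a, Rab7b, Rab26, Rab27b, Rab37, Rab38 and Rab44 did not. Capitals mark AGGTCA, the single site of nuclear receptors such as Pparα, or its complement.
Rab1a, chr11:20201162-20201461, plus strand: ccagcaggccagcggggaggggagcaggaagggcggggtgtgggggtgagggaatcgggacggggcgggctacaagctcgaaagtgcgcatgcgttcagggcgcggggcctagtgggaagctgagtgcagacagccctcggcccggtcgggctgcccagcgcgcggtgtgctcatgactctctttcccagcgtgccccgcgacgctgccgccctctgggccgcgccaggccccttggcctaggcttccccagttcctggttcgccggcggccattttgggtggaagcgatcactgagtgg
Rab9, chrX:166479818-166480117, minus strand: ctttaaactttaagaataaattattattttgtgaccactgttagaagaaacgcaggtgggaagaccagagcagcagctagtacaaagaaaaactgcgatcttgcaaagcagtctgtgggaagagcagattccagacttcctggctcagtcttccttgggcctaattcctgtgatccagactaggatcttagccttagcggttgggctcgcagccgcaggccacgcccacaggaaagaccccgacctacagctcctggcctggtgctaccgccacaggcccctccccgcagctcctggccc
Rab34, chr11:78188177-78188476, plus strand: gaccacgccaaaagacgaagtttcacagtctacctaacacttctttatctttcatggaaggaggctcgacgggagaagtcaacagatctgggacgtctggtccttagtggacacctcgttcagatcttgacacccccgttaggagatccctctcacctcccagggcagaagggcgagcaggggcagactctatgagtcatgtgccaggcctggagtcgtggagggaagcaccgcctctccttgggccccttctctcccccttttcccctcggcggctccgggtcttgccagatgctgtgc
Rab3a, chr8:70754453-70754752, plus strand: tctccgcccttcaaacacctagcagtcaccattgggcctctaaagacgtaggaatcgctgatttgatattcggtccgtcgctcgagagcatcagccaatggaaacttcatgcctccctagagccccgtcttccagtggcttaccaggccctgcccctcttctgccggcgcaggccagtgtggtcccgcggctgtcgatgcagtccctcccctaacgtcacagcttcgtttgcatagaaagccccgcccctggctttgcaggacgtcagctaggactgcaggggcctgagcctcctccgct
Rab32, chr10:10558158-10558457, minus strand: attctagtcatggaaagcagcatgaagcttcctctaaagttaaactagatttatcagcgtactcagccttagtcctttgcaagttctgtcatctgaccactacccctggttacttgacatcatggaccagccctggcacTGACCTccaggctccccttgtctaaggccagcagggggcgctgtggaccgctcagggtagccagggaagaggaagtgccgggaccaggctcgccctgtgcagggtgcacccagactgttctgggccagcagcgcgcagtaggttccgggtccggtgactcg
On either strand, AGGTCA was found in 16.3% of all 32851 promoters and in 5 of the 60 promoters of members, those of Rab22a, Rab31, Rab32, Rab42 and Rab43. Of the 5 genes shown, Rab32 alone held it, at position -111 from the start, and Rab32 fell. Direct repeats of AGGTCA with 1 base between them, which bind Pparα with its partner, were in 13 promoters of the genome and in none of a member. CACGTG, bound by Tfeb and other lysosomal and clock factors, was in 7.15% of all promoters and in 6 of the members', those of Rab5a, Rab20, Rab21, Rab23, Rab24 and Rab27a. TGATGCAA, read by Atf4 with its partners, was in 0.895% of all promoters and in no member's, and the cAMP response element TGACGTCA in 1.79% and in those of Rab5a and Rab25. The Rab1a window had 70.3% G and C, above the median of 52.7% over all promoters, and that of Rab9 had 53.3%.

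Among the 16 members that act between endoplasmic reticulum and Golgi or within the Golgi, 13 were tested for the averaged Cpt2 effect. Higher were 5 of them (Rab30, Rab34, Rab36, Rab1a and Rab6b) and lower none, with a median of 0.25 on the log2 scale, beside 18.2% higher and 19.3% lower over all genes. Rab29, which also acts at the Golgi, was counted with the lysosome-related organelles below and fell. Rab36 rose in Cpt2L-/- against ff;ff and fell in DKO against Rab30L-/-, and in the latter comparison 5 of the 11 tested members of this role were higher and 2 lower. Rab1b, the close relative of Rab1a, was at 55.7, 53.7, 66.6 and 64.2 FPKM in Cpt2L-/- and 42.1, 68.4, 58.3 and 70.6 in ff;ff, with a log2 fold change of 0.00 (SE 0.17). In DKO it was at 49.8, 48.2, 44.95 and 43.9 FPKM and fell against Rab30L-/-, at 62.3, 64.6, 76.2 and 56.0 (log2 fold change -0.49, SE 0.12, adjusted p = 0.011 by edgeR). With the GC offsets described below this fall was -0.24 and was not called (adjusted p = 0.168). Rab6a and Rab33b, Golgi Rabs, were called in DKO against Rab30L-/- alone, at 0.43 (SE 0.12) and 0.47 (SE 0.16). Rab6a was lost without replicate 4 of Rab30L-/-, and Rab33b held in 2 of 8 fits. They are named here, outside the naming rule, after their values were seen.

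Rab6b, a relative of Rab6a known from neurons, was sparse. Cpt2L-/- livers had 12, 18, 13 and 29 counts and ff;ff livers 0, 1, 3 and 0. Against a floor of 3 counts per library its level in Cpt2L-/- was at least 5.43-fold higher. DKO livers had 6, 18, 1 and 3 counts and Rab30L-/- livers 0, 0, 4 and 17, so these groups overlapped. The averaged effect of Rab6b was called (adjusted p = 0.0393 by edgeR), but in 6 of 16 fits without a library, up to an adjusted p of 0.143 without replicate 2 of DKO. It was also lost with no filter on low counts (adjusted p = 0.088) and in the fit of all 24 libraries.

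Of the 7 members of late endosomes, lysosomes and autophagy, 5 were tested and Rab9 alone was called for the averaged effect, beside 37.4% of all genes. Rab7, which directs late endosomes and autophagosomes to lysosomes, was at 78.6, 82.1, 78.5 and 74.3 FPKM in Cpt2L-/- and 94.9, 76.4, 87.0 and 71.9 in ff;ff. It rose in DKO (86.4, 90.4, 83.3 and 98.0 FPKM) against Rab30L-/- (69.3, 71.2, 68.8 and 72.0 FPKM) by 0.33 on the log2 scale (SE 0.11, adjusted p = 0.0415 by edgeR). That call held in 1 of 8 fits, without replicate 3 of DKO, and reached an adjusted p of 0.0849 in the others. With no filter on low counts it was lost (adjusted p = 0.117).

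Of the 3 members of lysosome-related organelles, 2 were tested, Rab32 and Rab29, and both fell for the averaged effect, beside 19.3% of all genes. Rab32, which serves melanosomes, mitochondria and autophagy, was at 6.99, 7.52, 8.19 and 8.001 FPKM in Cpt2L-/- against 19.4, 11.05, 11.5 and 14.9 in ff;ff, without overlap. Its log2 fold change was -0.89 (SE 0.18, adjusted p = 0.00343 by edgeR) there and -0.20 (SE 0.20, adjusted p = 0.49) in DKO against Rab30L-/-, at 9.28, 12.3, 7.05 and 9.89 against 13.1, 13.2, 9.69 and 7.71 FPKM. The interaction of Rab32 was 0.69 (SE 0.29, adjusted p = 0.165). Rab29, a Rab of the Golgi and lysosomes that recruits the kinase Lrrk2, was at 2.97, 3.37, 4.36 and 2.66 FPKM in Cpt2L-/- and 3.89, 2.97, 2.89 and 4.94 in DKO. It was at 5.74, 5.36, 3.02 and 6.44 FPKM in ff;ff and 6.13, 7.13, 5.20 and 5.99 in Rab30L-/-. Its averaged log2 fold change was -0.69 (SE 0.17, adjusted p = 0.00359), called in all 16 fits without a library.

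Of the 8 exocytic members tested for the averaged effect, Rab3d rose and Rab3a and Rab13 fell, beside 37.4% of all genes called. Rab3d, a Rab of secretory granules, was at 4.08, 4.04, 3.48 and 3.39 FPKM in Cpt2L-/- against 2.33, 2.84, 1.12 and 2.71 in ff;ff (log2 fold change 0.73, SE 0.24, adjusted p = 0.0455 by edgeR). This call held without replicate 2 or 3 of ff;ff and in no other such fit, up to an adjusted p of 0.108. In DKO it was at 3.18, 2.91, 2.79 and 3.44 FPKM and in Rab30L-/- at 2.70, 1.82, 2.55 and 3.05, which was not called. Rab13, which brings proteins to tight junctions, was at 1.13, 1.06, 1.60 and 1.56 FPKM in Cpt2L-/- and 0.994, 1.09, 0.950 and 1.35 in DKO. It was at 1.66, 2.32, 1.77 and 2.06 FPKM in ff;ff and 1.77, 2.24, 2.87 and 1.58 in Rab30L-/-. Within each pair the groups did not overlap, but the call was made in DKO against Rab30L-/- (-0.97, SE 0.25) and not in Cpt2L-/- against ff;ff (-0.55, SE 0.24, adjusted p = 0.124 by edgeR). The averaged log2 fold change was -0.76 (SE 0.17, adjusted p = 0.00143).

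Of the recycling members, Rab17, which sorts recycling and transcytosis in polarized epithelia such as hepatocytes, was at 6.71, 5.40, 4.55 and 6.56 FPKM in DKO against 8.30, 9.21, 9.72 and 10.02 in Rab30L-/-. It fell there by 0.70 on the log2 scale (SE 0.15, adjusted p = 0.00521 by edgeR). In Cpt2L-/- it was at 6.01, 5.64, 7.44 and 5.95 FPKM and in ff;ff at 7.84, 5.32, 4.34 and 8.18, with a log2 fold change of -0.04 (SE 0.21). The averaged effect of Rab17 was called (-0.37, SE 0.13, adjusted p = 0.0352) in 6 of 16 fits without a library, up to an adjusted p of 0.0945. It was lost without replicates 1 or 4 of ff;ff, 2, 3 or 4 of Rab30L-/-, 1, 2 or 4 of Cpt2L-/-, or 2 or 3 of DKO. None of the 7 early endosome members and 1 of the 6 tested recycling members was called for the averaged effect by edgeR, beside 37.4% of all genes. In DKO against Rab30L-/- Rab5a rose by 0.44 (SE 0.13) and Rab5c fell by 0.49 (SE 0.10) on the log2 scale, both named after their values were seen. The call of Rab5a was lost without replicates 2, 3 or 4 of Rab30L-/- or 4 of DKO. Rab23, which restrains Hedgehog signalling at the cilium, fell for the averaged effect by 0.52 on the log2 scale (SE 0.18, adjusted p = 0.0286). Its level was 0.589, 0.953, 0.781 and 0.639 FPKM in Cpt2L-/-, 0.638, 0.494, 0.967 and 0.800 in DKO, 1.08, 0.964, 0.707 and 0.786 in ff;ff and 0.929, 1.25, 0.927 and 1.82 in Rab30L-/-. These ranges overlapped, and the call held in 9 of 16 fits. It was lost without replicates 1 or 2 of ff;ff, 4 of Rab30L-/-, 1 or 4 of Cpt2L-/-, or 1 or 2 of DKO.

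Of the pairs of related genes, few differed in balance in both comparisons. Ratios of FPKM were taken within each library for 21 pairs, of which 17 had values above 0 throughout. Rab3a stood at 0.526 to 1.06 times Rab3d in ff;ff and 0.604 to 1.31 times in Rab30L-/-. It stood at 0.171 to 0.317 times in Cpt2L-/- and 0.286 to 0.373 times in DKO, without overlap. Rab7 stood at 2.47 to 3.56 times Rab9 in ff;ff and 2.80 to 4.20 times in Rab30L-/-, against 1.58 to 2.15 times in Cpt2L-/- and 1.79 to 2.11 times in DKO. These were the 2 pairs of 17 without overlap in both comparisons, and the same share over pairs of other genes was not measured. Rab1a stood at 0.591 to 0.725 times Rab1b in Rab30L-/- and 1.42 to 1.91 times in DKO. In Cpt2L-/- the range was 0.979 to 1.26 and in ff;ff 0.555 to 1.41, which overlap.

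**Figure D4:**
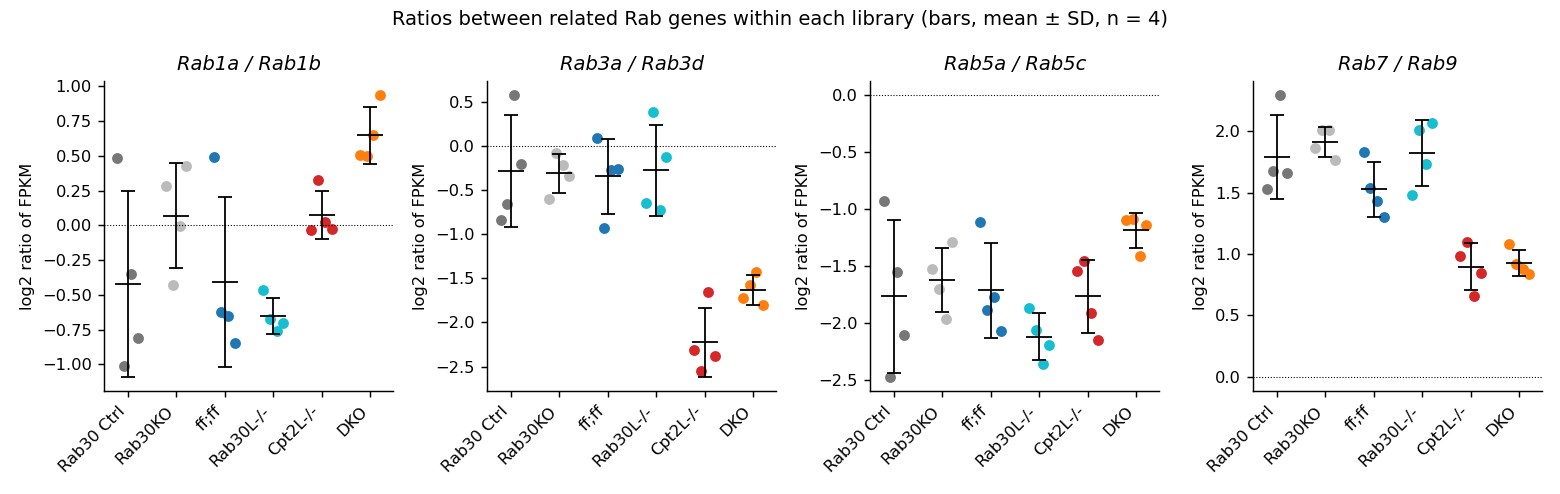
Log2 ratios of FPKM between 4 pairs of related Rab genes in each liver (points) with the mean ± SD of 4 per group. Rab3a to Rab3d and Rab7 to Rab9 are lower in all livers without Cpt2 than in those of the ff;ff and Rab30L-/- groups, and Rab1a to Rab1b ranges widely among the Rab30 Ctrl, Rab30KO and ff;ff livers.

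The GC content of transcripts moved with several of these values. In DKO against Rab30L-/- the fifth of genes with the lowest GC content had a median log2 fold change of 0.20 and the fifth with the highest one of -0.23. In Cpt2L-/- against ff;ff these medians were -0.11 and 0.05, and for the averaged effect 0.04 and -0.10. The difference between these 2 gene sets within a library, on a log2 scale centred on all libraries, was 0.06 to 0.29 in DKO and -0.27 to -0.12 in Rab30L-/-, without overlap. It ran from -0.39 to 0.61 in ff;ff. Among the 16 livers with Cpt2, Rab1a exceeded Rab1b in 4, by 1.40, 1.22, 1.34 and 1.41 times, and the GC differences of these libraries were 0.67, 0.21, 0.76 and 0.61. Replicate 3 of Rab30 Ctrl had a GC difference of 0.20 and a ratio of 0.786. In Cpt2L-/-, the ratios were 0.979, 1.26, 1.01 and 0.982 at GC differences of -0.23, -0.08, -0.19 and -0.36. In DKO they were 1.42, 1.42, 1.57 and 1.91 at 0.16, 0.28, 0.06 and 0.29. The longest transcripts of Rab1a and Rab1b have 42.0% and 58.9% G and C.

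With a GC offset for each library, chosen after the data were seen, 12 of the 17 calls in DKO against Rab30L-/- remained, and the share of all genes called went from 30.7% to 27.2%. Rab1b (-0.24, SE 0.12), Rab6a (0.29, SE 0.12), Rab33b (0.37, SE 0.16), Rab40c (-0.21, SE 0.14) and Rab36 were no longer called, with adjusted p of 0.168, 0.0933, 0.107, 0.276 and 0.0587 by edgeR. Of the 9 calls in Cpt2L-/- against ff;ff, 8 remained and Rab3d did not (adjusted p = 0.0724), while the share of all genes went from 23.8% to 27.6%. Of the 13 for the averaged effect, 12 remained and Rab17 did not (adjusted p = 0.109), with 38.3% of all genes called. Rab1a was then at 0.57 (SE 0.12) and 0.63 (SE 0.13) in the 2 comparisons, Rab9 at 0.56 and 1.11, Rab34 at 1.71 and 1.64, and Rab3a at -1.22 and -0.92. All 4 stayed called.

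**Figure D5:**
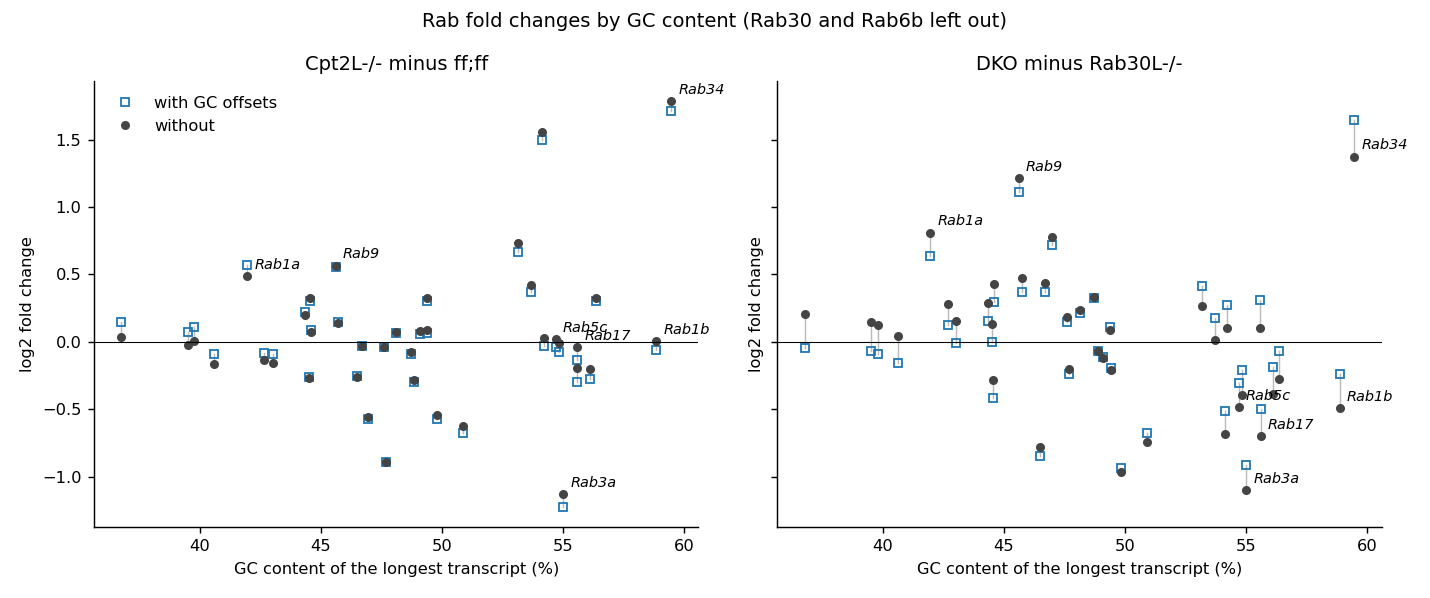
Log2 fold change (y axis) of the tested Rab genes against the GC content of the longest transcript (x axis) in Cpt2L-/- minus ff;ff and DKO minus Rab30L-/-, without (filled) and with (open) GC offsets. Rab30 and Rab6b are left out. The offsets draw Rab1b, Rab5c and Rab17 towards 0 in the right panel and raise Rab34 from 1.37 to 1.64.

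In Rab30KO against Rab30 Ctrl, edgeR called 0 of 44 members, with 1 (Rab32) at an unadjusted p under 0.05, and DESeq2 and limma-voom also called 0, beside 0.022% of all genes. In Rab30L-/- against ff;ff and in DKO against Cpt2L-/-, 1 of 41 members was called each, Rab36, beside 0.479% and 2.71% of all genes. In the former DESeq2 and limma-voom each called 3, adding Rab27a and Rab30, and in the latter they called 3 and 2, adding Rab1b and Rab5c, or Rab5c. Rab36, a Golgi relative of Rab34, was at 2.47, 1.55, 2.39 and 2.31 FPKM in Rab30L-/- and 1.15, 1.17, 0.868 and 0.972 in ff;ff. It was at 2.51, 3.60, 3.28 and 2.90 FPKM in Cpt2L-/- and 1.68, 1.27, 1.38 and 1.18 in DKO. In Rab30 Ctrl it was at 0.811, 2.16, 1.60 and 2.002 FPKM, which overlapped with both Rab30L-/- and ff;ff. In Rab30KO it was at 1.98, 1.42, 1.25 and 1.32 FPKM, with a mean of 1.49 against 1.64 in Rab30 Ctrl. Loss of Rab30 from every tissue was thus not followed by a rise. Rab36 rose in Rab30L-/- against ff;ff (log2 fold change 1.08, SE 0.20, adjusted p = 0.0402 by edgeR). It fell in DKO against Cpt2L-/- (-1.16, SE 0.16, adjusted p = 0.00508). The first call held in 1 of 8 fits, without replicate 2 of Rab30L-/-, reached an adjusted p of 0.134 in the others, and was lost with GC offsets (adjusted p = 0.0654) and with at least 10 counts in every library (adjusted p = 0.0568). The second held in 8 of 8.

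The interaction asks whether the Cpt2 effect differed between Rab30 states, and it called 1 of 44 members, Rab36 (-2.24, SE 0.26, adjusted p = 5.86e-05 by edgeR), beside 4.06% of all genes. A background shared by the ff;ff and DKO littermates cannot be told apart from this interaction. For Rab9 the interaction was 0.65 (SE 0.19, adjusted p = 0.0622). DESeq2 and limma-voom each called 5 members for the interaction, adding Rab5c, Rab9, Rab27a and Rab30, and edgeR called up to 3 with a library left out (3 without replicate 1 of Rab30L-/-). Rab7, Rab17 and Rab32, each called in 1 Cpt2 comparison alone, were not called for the interaction by any of the 3 tools.

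Rab30 was at 12.8, 13.6, 19.5 and 15.6 FPKM in Cpt2L-/- against 2.73, 4.74, 4.74 and 3.25 in ff;ff. It was at 13.8, 10.7, 24.4 and 19.3 FPKM in DKO against 2.03, 1.09, 2.71 and 1.30 in Rab30L-/-. The DKO livers, labelled as lacking Rab30 in hepatocytes, thus overlapped with the Cpt2L-/- livers in its whole-gene count. Apart from these counts, the study measured Rab30 and Cpt2 mRNA by qRT-PCR and Rab30 protein by immunoblot in the livers of its knockouts. Exon 4, the floxed exon, spans 184 bases of transcript Rab30-201 (chr7:92829526-92829709 in GRCm38), or 1.91% of the gene's counted length.

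Regulators and effectors of Rabs were also read for the averaged effect. Of 52 exchange factors tested, 12 rose and 4 fell (30.8%). Among them were Dennd4a at 0.78 (SE 0.10), Ankrd27, an exchange factor of Rab21, at 0.75 (SE 0.08), St5 at 0.73 (SE 0.22) and Dennd4b at -0.66 (SE 0.14). Of 40 GTPase-activating proteins, 13 rose and 4 fell (42.5%), with Tbc1d30 at -1.07 (SE 0.24), Grtp1 at -0.76 (SE 0.11), Tbc1d31 at 0.70 (SE 0.17) and Tbc1d19 at 0.66 (SE 0.25). Of 46 effectors, 11 rose and 8 fell (41.3%), with Myo5b, a motor that Rab11 proteins recruit, at 0.74 (SE 0.10) and Vps41, a tether at the lysosome, at 0.72 (SE 0.10). Rab11fip5 was at 0.70 (SE 0.24) and Appl2, an effector on early endosomes, at 0.67 (SE 0.09). These 3 lists stand beside 37.4% of all genes called for the averaged effect, 18.2% higher and 19.3% lower, and their difference from all genes was not tested.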

How the data were processed

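Whole livers of 24 mice were measured by RNA-seq. Novogene made, sequenced and statistically compared the libraries for the authors. The submitters' processing notes name HISAT2, DESeq2 and the builds GRCm38 and mm10, and the counter and its use of strand are not given in the sources used here. Deposited by the authors were untransformed read counts for each gene and FPKM values, that is counts divided by gene length and a scaled library total. The range of library totals is given in the report. Tables of the authors' own fold changes and p-values, and a normalized table, were not used.

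Groups followed the sample labels. Counts were filtered with filterByExpr, scaled by TMM and tested with edgeR 4.0.16 (quasi-likelihood, robust, R 4.3.3), each pair on its 8 libraries and the averaged Cpt2 effect and interaction on 16, with Benjamini-Hochberg adjustment over all genes tested. Single-gene precision is given as SE, which depth and the spread between mice set. A floor of 3 counts stood for 0, which covers counting error only, since reads are not independent molecules. GC content came from the longest GENCODE M21 transcript, which 99.9% of the genes tested had (98.3% of all listed genes stood at M21 coordinates). GC offsets were lowess curves per library.

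Alternatives were DESeq2 1.42.0 size factors and its Wald test, limma 3.58.1 voom with quality weights, no filter on low counts, at least 10 counts in every library, all 24 libraries in 1 fit, no fold threshold and each library left out. Values per library are given for members called in both Cpt2 comparisons, for the averaged effect or in a Rab30 comparison, the 5 highest members and Rab30. They cover the ff;ff, Rab30L-/-, Cpt2L-/- and DKO livers, and all 24 livers for Rab2a, Rab18 and Rab36. The members, the lists of regulators, markers and pairs, and this rule were chosen with earlier results of these data known. Results on the list of prenylation and recycling genes are not reported here. Named Rab pseudogenes were not members (4 in the table), and reads shared with them, or between paralogs, are uncertain.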

Additional observations from a re-analysis of the deposited data

Results flagged for a closer look

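In 7 of 102 groups of 4 livers, taken over 17 named genes, 1 liver stood apart from the other 3 by Dixon's ratio of the gap to the range, and chance alone marks, by the level at which that ratio is read, about 1 group in 20. Rab2a was at 75.6 FPKM and Rab18 at 60.8 FPKM in replicate 1 of ff;ff, and Rab18 was at 60.3 FPKM in replicate 4 of Rab30KO. Both libraries lay high in genes of low GC content, with differences of 0.61 and 0.76 between the genes of lowest and highest GC content, beside -0.39 to 0.67 in the other 22. Rab1a was at 84.0 FPKM in replicate 4 of DKO, above its group. Rab34 was at 4.87 FPKM in replicate 4 of Rab30 Ctrl. Rab36 was at 1.55 FPKM in replicate 2 of Rab30L-/-, below its group, and its rise against ff;ff stayed called without that liver alone. Rab6b was at 0.261 FPKM (17 counts) in replicate 4 of Rab30L-/-.

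The Cpt2 effect on Rab36 differed between Rab30 states by -2.24 on the log2 scale, tested by the interaction term. It rose in Cpt2L-/- against ff;ff (1.56, SE 0.18) and fell in DKO against Rab30L-/- (-0.68, SE 0.19). With GC offsets the interaction was -2.01 and stayed called, while the fall in DKO against Rab30L-/- was no longer called (-0.51, adjusted p = 0.0587 by edgeR).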

How the results depend on the processing

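No value of a called gene changed sign under any alternative run. The number of members called in Cpt2L-/- against ff;ff was 6 to 9 with a library left out, in DKO against Rab30L-/- 11 to 16, for the averaged effect 11 to 15, in DKO against ff;ff 3 to 7, in DKO against Cpt2L-/- 1 to 1, in Rab30L-/- against ff;ff 0 to 1, for the interaction 1 to 3 (3 without replicate 1 of Rab30L-/-, 2 without replicate 3 of Rab30L-/- or 1 of DKO) and in Rab30KO against Rab30 Ctrl 0 to 0. In DKO against ff;ff limma-voom called 9 members in place of 5. In DKO against Cpt2L-/- DESeq2 called 3 and limma-voom 2 in place of 1, the added members being Rab1b and Rab5c for DESeq2 and Rab5c for limma-voom. In Rab30L-/- against ff;ff both called 3 in place of 1, adding Rab27a and Rab30, while at least 10 counts in every library and GC offsets each called 0. For the interaction both called 5 in place of 1, adding Rab5c, Rab9, Rab27a and Rab30. Of called members, Rab1a in Cpt2L-/- against ff;ff lost its call in 2 of 6 other choices of tool, scaling, filter or libraries (adjusted p up to 0.0582), the averaged effect of Rab6b in 2 of 5 (0.088), and in DKO against Rab30L-/- Rab33b in 2 (0.0921), Rab40c (0.174), Rab6a (0.0555) and Rab7 (0.117) in 1 each of 6. Rab13 in DKO against ff;ff (0.0852) and Rab36 in Rab30L-/- against ff;ff (0.0568) each lost it in 1 of 6. The cause of these shifts was not tested. The share of the 5 highest members was 48.1% with TMM-scaled counts per kilobase as with FPKM. No paired analysis was possible because the labels give replicate numbers to the Rab30KO group alone. The replicate numbers used here for the other groups follow the order of their samples in the series. Of the 22 members under 1 FPKM, only those passing the filter on low counts were tested, and sparse members such as Rab6b rest on few reads.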
